A study of Danio rerio with 8 samples.

Results

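The genes described here are 10 zebrafish genes of the unfolded protein response of the endoplasmic reticulum (ER): the chaperones *hspa5*, *hsp90b1* and *calr*, the protein disulfide isomerases *pdia3*, *pdia4* and *pdia6*, the co-chaperones *sdf2l1* and *dnajc3a*, and the transcription factors *xbp1* and *atf6*. Their probes were found by the RefSeq accession that the array design gives for each probe. The rule for the genes uses no measured value, but the list was drawn up with earlier results of these data known. The 10 genes had 28 probes among 26094 probes that could be given a symbol, which cover 13443 genes. All 28 probes were well above background on all 8 arrays, so that none of the 10 genes was lost among the 8654 genes that passed this filter.

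The liver RNA came from male wild-type zebrafish of 3 months that were held for 96 h in river water or in control water. The river groups were H1, H2, H3, H4 and H5, named after sites along the Hun River, and D and X, named after sites on the tributaries Dongzhou River and Xi River. H1 lay near a reservoir and served as the background site of the river, H3 and H4 lay upstream and downstream of the city of Shenyang, the Dongzhou River received petroleum and chemical discharge, and the Xi River received domestic and pharmaceutical effluent. The control fish were held in aerated tap water filtered over carbon. For D and X, one label gives 97 h and another gives 96 h. Each group had 1 one-colour Agilent array, hybridized with RNA of a pool of 5 livers, so water, tank and pool cannot be told apart, differences rest on single arrays and carry no p-value. The arrays of H1, H2, D and the control lay on one slide and those of H3, H4, H5 and X on another. A difference between H3, H4, H5 or X and the control therefore cannot be told apart from a difference between slides.

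The ER folds and joins by disulfide bonds the proteins that a cell secretes or places in its membranes, and hepatocytes secrete most proteins of the blood plasma. When unfolded proteins accumulate in the ER, the membrane proteins Ire1, Perk and Atf6 are activated: Ire1 splices *xbp1* RNA into the form that encodes an active factor, Atf6 is cut in the Golgi to release its active part, and Perk phosphorylates eIF2alpha, which slows translation and favours that of Atf4. Xbp1 and Atf6 raise transcription of chaperones and disulfide isomerases, as worked out mainly in mammalian cells. The arrays measured RNA levels. Splicing of *xbp1*, cleavage of Atf6 and phosphorylation of eIF2alpha were not measured.

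Levels are given as log2 of the quantile normalized signal, averaged over the probes of a gene, and differences are those of a site minus the control. Levels were compared between arrays for one gene at a time and not between genes. The spread given beside a difference is the SD over the probes of the gene, which covers error within arrays and not the variation between fish. A gene was counted as changed at 2 fold or more. The scanner's own error of the members' signals ranged from 10.0% to 14.4%, and none of these spots was saturated. In bulk liver RNA, fewer cells of a type and less RNA per cell cannot be told apart.

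**Figure D1:**
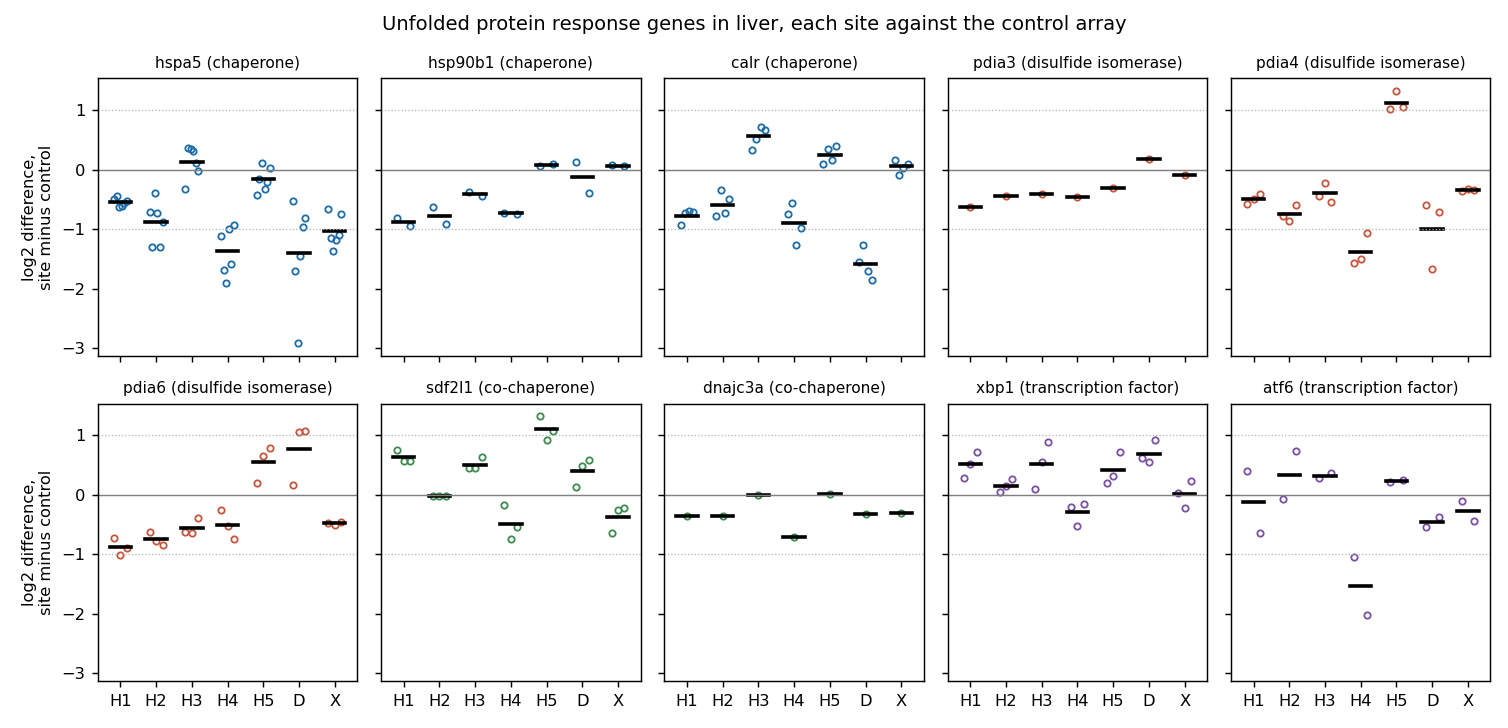
Log2 difference of each member gene, site minus control (y axis), at the 7 sites (x axis). Open circles are single probes, bars are their means, and dotted lines mark 2 fold. The *hspa5* bars at H4, D and X lie below the lower line, at -1.37, -1.40 and -1.03, and the *pdia4* bars lie above the upper line at H5 (1.12) and below the lower one at H4 (-1.38).

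*hspa5* (NM_213058) encodes BiP, the Hsp70 chaperone of the ER lumen that binds unfolded chains and holds the sensors inactive. Its log2 level was 11.97 at H1, 11.62 at H2, 12.64 at H3, 11.14 at H4, 12.35 at H5, 11.11 at D and 11.48 at X, against 12.51 in the control. The H4, D and X arrays were the lowest, and the H3 and H5 arrays lay within 1 SD over probes of the control. *hspa5* was 2.63-fold lower at D (log2 difference -1.40 ± 0.86, SD over 6 probes), 2.59-fold lower at H4 (-1.37 ± 0.41) and 2.04-fold lower at X (-1.03 ± 0.27) than in the control. All 6 probes were lower than in the control at H1, H2, H4, D and X. With the median of the 7 other arrays in place of the control, the H1 value was 0.21. Their size varied most at D, where single probes gave -0.53 to -2.91 and the brightest probe gave the difference nearest to 0. With the brightest probe alone, a choice made after the values were seen, *hspa5* passed 2 fold at H4 (-1.11) but not at D (-0.53) or X (-0.66).

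*calr* (NM_199713) encodes calreticulin, a calcium-binding lectin chaperone of newly made glycoproteins. Its log2 level was 11.17 at H1, 11.35 at H2, 12.50 at H3, 11.05 at H4, 12.19 at H5, 10.35 at D and 12.00 at X, against 11.94 in the control. D was the lowest array by 0.70 below H4, the next one, which exceeds the SD over the 4 probes (0.20). *calr* was 3.02-fold lower at D than in the control (-1.59 ± 0.25), the only member to pass 3 fold, and each of its 4 probes passed 2 fold there (-1.27 to -1.85). It was lower with all 4 probes at H1 (-0.77 ± 0.11), H2 (-0.59 ± 0.21) and H4 (-0.89 ± 0.31), and higher with all 4 probes at H3 (0.56 ± 0.17) and H5 (0.25 ± 0.14), none of which passed 2 fold. Centred on the slide, *calr* was -0.28 at H3 and -0.58 at H5, so its direction at these sites depended on how the slide was treated.

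*hsp90b1* (NM_198210) encodes Grp94, the Hsp90 chaperone of the ER lumen. Its log2 level was 13.69 at H1, 13.80 at H2, 14.16 at H3, 13.84 at H4, 14.64 at H5, 14.44 at D and 14.64 at X, against 14.57 in the control. No site passed 2 fold. The arrays formed a low set (H1, H2 and H4, at -0.88 ± 0.09, -0.77 ± 0.20 and -0.73 ± 0.01 against the control) and a set near the control (H5, X and D, at 0.07, 0.07 and -0.13), with H3 between them at -0.41 ± 0.05. At D its 2 probes had opposite signs (0.13 and -0.39, SD 0.37), so no direction is given there. The D array, where *hspa5* and *calr* were lowest, was thus not in the low set for *hsp90b1*.

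The disulfide isomerases form and exchange disulfide bonds in the ER, and they did not follow one order over the arrays. *pdia4* (NM_199779, known in mammals as ERp72) had a log2 level of 12.36 at H1, 12.11 at H2, 12.45 at H3, 11.48 at H4, 13.98 at H5, 11.86 at D and 12.51 at X, against 12.85 in the control. The H5 array was the highest by 1.12 above the control, the next one, and the H4 array the lowest. *pdia4* rose 2.18-fold at H5 (1.12 ± 0.16) and fell 2.60-fold at H4 (-1.38 ± 0.27) relative to the control, with all 3 probes past 2 fold at both sites. It passed 2 fold in both directions, as did 2.11% of the 8654 genes. At D it lay just inside 2 fold (-0.99 ± 0.59), where single probes gave -0.60 to -1.67.

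*pdia6* (NM_197933), which encodes the isomerase called P5 in mammals, had a log2 level of 10.22 at H1, 10.35 at H2, 10.54 at H3, 10.59 at H4, 11.64 at H5, 11.86 at D and 10.62 at X, against 11.10 in the control. D and H5 were above the control with all 3 probes (0.76 ± 0.52 and 0.54 ± 0.30), and the other 5 sites were below it with all 3 probes, from -0.88 ± 0.15 at H1 to -0.48 ± 0.03 at X. No site passed 2 fold. At D, *pdia6* lay above the control while *calr* and *hspa5* lay below it.

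*pdia3* (NM_001199737) encodes the isomerase that works with calreticulin and calnexin on glycoproteins. Its single probe gave a log2 level of 15.27 at H1, 15.45 at H2, 15.49 at H3, 15.44 at H4, 15.58 at H5, 16.07 at D and 15.80 at X, against 15.90 in the control. The differences ran from -0.63 at H1 to 0.17 at D and none passed 2 fold. With 1 probe, no spread can be given.

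*sdf2l1* (NM_001003730) encodes a soluble ER protein found with BiP and its J-domain partners in mammalian cells. Its log2 level was 10.47 at H1, 9.82 at H2, 10.35 at H3, 9.36 at H4, 10.94 at H5, 10.24 at D and 9.47 at X, against 9.84 in the control. It rose 2.14-fold at H5 (1.1 ± 0.21), where single probes gave 0.91 to 1.32. All 3 probes were also higher than in the control at H1 (0.63 ± 0.10), H3 (0.51 ± 0.11) and D (0.40 ± 0.24), and lower at H4 (-0.49 ± 0.29) and X (-0.37 ± 0.24), none of them past 2 fold. At H1 the member set was thus divided. All probes of *sdf2l1* and *xbp1* lay above the control, and all those of *hspa5*, *hsp90b1*, *calr* and the 3 isomerases below it.

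*dnajc3a* (NM_199610) encodes the J-domain co-chaperone P58IPK, which assists BiP. Its single probe gave a log2 level of 12.94 at H1, 12.94 at H2, 13.29 at H3, 12.57 at H4, 13.30 at H5, 12.97 at D and 12.98 at X, against 13.29 in the control. H3, H5 and the control were within 0.02 of each other, and H4 was the lowest at -0.72 against the control. None passed 2 fold.

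*xbp1* (NM_131874) encodes the factor made active by Ire1 splicing. Whether its 3 probes tell the spliced from the unspliced RNA was not examined. Its log2 level was 14.01 at H1, 13.66 at H2, 14.01 at H3, 13.21 at H4, 13.91 at H5, 14.19 at D and 13.51 at X, against 13.50 in the control. D (0.69 ± 0.20), H1 (0.51 ± 0.21), H3 (0.51 ± 0.39) and H5 (0.41 ± 0.27) were above the control and H4 (-0.30 ± 0.20) below it, in each case with all 3 probes, and none passed 2 fold. X differed from the control by 0.01 ± 0.23, less than the spread over the probes.

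*atf6* (NM_001110519) encodes the membrane-bound factor freed by cleavage. Its log2 level was 10.11 at H1, 10.56 at H2, 10.55 at H3, 8.69 at H4, 10.46 at H5, 9.77 at D and 9.96 at X, against 10.23 in the control. H4 was the lowest array by 1.08 below D, the next one. *atf6* fell 2.91-fold at H4 relative to the control (-1.54 ± 0.69), and its 2 probes gave -1.05 and -2.03. At H1 and H2 the 2 probes had opposite signs (0.40 and -0.64 at H1, -0.07 and 0.73 at H2), so no direction is given there.

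Site by site, the members lay lowest at H4 and highest at H5. At H4 all 10 members were below the control (53.1% of all genes were), with a median difference of -0.73 against -0.03 over all genes. The members *hspa5*, *pdia4* and *atf6* fell at least 2 fold at H4, 3 of 10 where 3.18% of all genes did. At H5 8 of 10 members were above the control (51.2% of all genes were), with a median of 0.24 against 0.01 over all genes. The members *pdia4* and *sdf2l1* rose at least 2 fold at H5, 2 of 10 where 2.29% of all genes did. With values centred on the slide, 5 members passed 2 fold at H4 and 1 at H5. With the median of the 7 other arrays in place of the control, 1 member passed it at H4. The share of all genes past 2 fold under these settings is not given here.

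At H1 and H2 the members' medians were -0.52 and -0.52, against 0.06 and 0.05 over all genes, and 8 of 10 members were below the control at each site (43.7% and 42% of all genes were). None of the 10 members passed 2 fold at either site, where 11% and 3.05% of all genes changed that much. At a threshold of 1.5 fold, 5 members changed at H1 and 5 at H2, against 26% and 11.8% of all genes. At H1 these 5 were *hsp90b1*, *calr*, *pdia3* and *pdia6*, which were lower, and *sdf2l1*, which was higher (0.63). At H2 they were *hspa5*, *hsp90b1*, *calr*, *pdia4* and *pdia6*, all of them lower. With the median of the 7 other arrays in place of the control, the median over the members was -0.07 at H1.

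At D the members went furthest apart, from -1.59 to 0.76. All genes were also most spread at D, with quartiles of -0.41 and 0.51. Probes of the same gene disagreed most at D, with a root mean square SD of 0.49 against 0.25 (H2) to 0.43 (H3) at the other sites. The paper states that a replicate RNA sample of site D failed the RNA quality check, so that the study had a single array for it. *hspa5* and *calr* fell at least 2 fold, 2 of 10 where 9.74% of all genes did, and *calr* fell at least 3 fold where 3.81% of all genes did. *pdia3*, *pdia6* and *xbp1* had their highest level of all 8 arrays at D, without passing 2 fold against the control, and 27.7% of all genes had their highest level there. The median over the members was -0.22 at D, and its sign was turned by 3 of the 10 alternatives tried. At X *hspa5* fell at least 2 fold, 1 of 10 where 5.5% of all genes did, and the median was -0.29. At H3 no member passed 2 fold, where 13.1% of all genes did, and the median was 0.06.

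**Figure D2:**
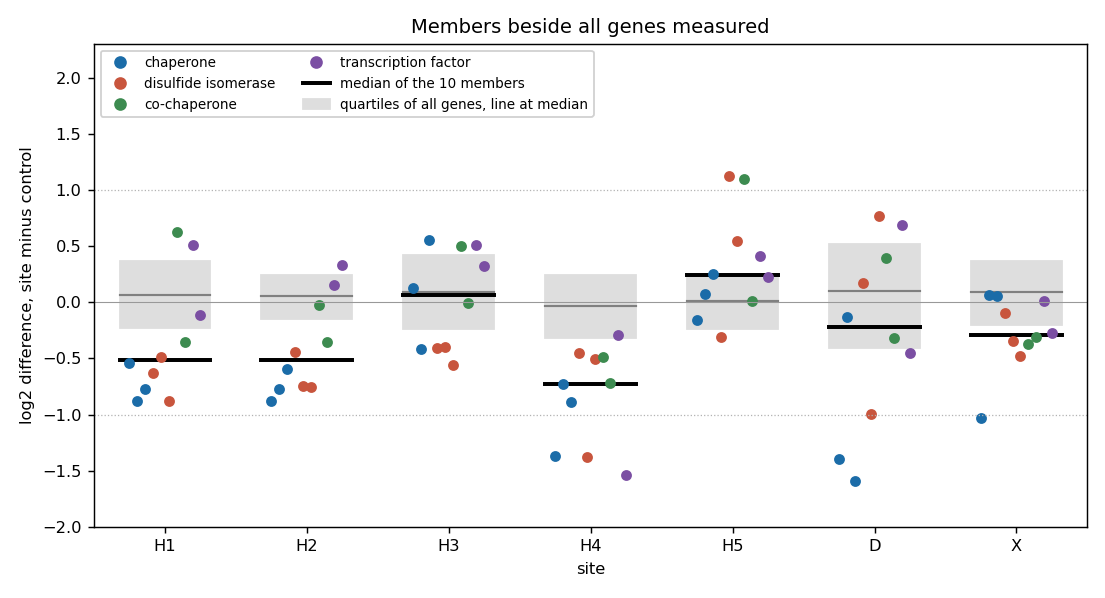
Log2 difference, site minus control (y axis), of the 10 members (points, coloured by role) at the 7 sites (x axis), with their median (black bar), and the quartiles and median of all 8654 genes measured (grey box and line). The member median lies below the box of all genes at H1, H2, H4 and X, and all 10 members lie below 0 at H4.

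Comparisons within the second slide do not involve the control array or the difference between slides. They were chosen after the values were seen, except that the study also set H4 against H3 and X against H5. H4 and H5 were the arrays where the mean over the members was lowest and highest (-0.61 and 0.55, each gene taken about its own mean). That members were lower at H4 than at H5 thus largely follows from the choice of this pair. H4 set against H5 gave a median over the members of -1.10, with 10 of 10 members lower at H4 (54% of all genes were) and 6 of them at least 2 fold lower, where 4.56% of all genes were. The 6 genes were *pdia4* (-2.50 ± 0.35), *atf6* (-1.77 ± 0.73), *sdf2l1* (-1.58 ± 0.09), *hspa5* (-1.21 ± 0.53), *calr* (-1.14 ± 0.31) and *pdia6* (-1.05 ± 0.54). *pdia4* was 5.65-fold lower at H4 than at H5.

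H4 set against H3, downstream against upstream of the city, gave a median of -0.89 over the members against -0.13 over all genes. *atf6* (-1.86 ± 0.74), *hspa5* (-1.5 ± 0.60) and *calr* (-1.45 ± 0.45) were at least 2 fold lower at H4, 3 of 10 where 8.86% of all genes were, and *pdia3* (-0.05) and *pdia6* (0.05 ± 0.36) were close to their H3 level. X set against H5 gave a median of -0.45 over the members. *sdf2l1* (-1.47 ± 0.44), *pdia4* (-1.47 ± 0.15) and *pdia6* (-1.02 ± 0.31) were at least 2 fold lower at X, 3 of 10 where 6.47% of all genes were, while *hsp90b1* differed by -0.01 ± 0.05.

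D and H2 lay on the first slide and were also set against each other by the study. *pdia6* was 2.86-fold higher at D than at H2 (1.52 ± 0.63) and *calr* 2.0-fold lower (-1.0 ± 0.25), 1 of 10 members in each direction, where 6.47% of all genes were at least 2 fold higher and 10.2% lower. The median over the members was 0.23. These comparisons share arrays with those against the control and with each other.

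Over the 8 arrays the range of a member, highest minus lowest log2 level, had a median of 1.55, against 1.08 over all genes. H5 held the highest level of 4 members (*hsp90b1*, *pdia4*, *sdf2l1* and *dnajc3a*), where 8.11% of all genes were highest, and H4 the lowest level of 5 members (*pdia4*, *sdf2l1*, *dnajc3a*, *xbp1* and *atf6*), where 21.9% of all genes were lowest. H1 held the lowest level of *hsp90b1*, *pdia3* and *pdia6*, where 8.53% of all genes were lowest. The member closest in pattern to the mean of the other 9 was *dnajc3a* (Pearson's r = 0.956 over the 8 arrays), followed by *pdia4* (0.840), and the farthest were *pdia3* (0.161) and *pdia6* (0.319). Of the 45 pairs of members, the 3 with the highest r were *hspa5* and *dnajc3a* (0.853), *dnajc3a* and *atf6* (0.812) and *sdf2l1* and *xbp1* (0.802), and the 3 with the lowest were *hspa5* and *pdia3* (-0.189), *calr* and *pdia3* (-0.184) and *calr* and *pdia6* (-0.179). These are descriptions over 8 arrays that share slides and 1 normalization.

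The genes with the pattern most like the mean of the 10 members, by Pearson's r over the 8 arrays among 8644 other genes, were *gja12.1* (0.908), *slc25a43* (0.906), *gja13.1* (0.901), *tdo2b* (0.887) and *cdab* (0.887). *gja12.1* and *gja13.1* encode gap junction proteins, *slc25a43* a mitochondrial carrier, *tdo2b* tryptophan dioxygenase, and *cdab* cytidine deaminase. Like the mean of the members, which they were picked to resemble, these 5 genes were lowest at H4, at 12.36, 9.75, 12.72, 13.96 and 14.92. Of all genes 21.9% were lowest there. The most opposite patterns were those of *septin8b* (-0.948), *nipbla* (-0.933) and *s100v2* (-0.930). With 75th percentile normalization *nipbla* had an r of -0.04. Of the 8 genes named here, 5 were again among the 5 highest and 3 lowest with that normalization.

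At H4 the medians of 4 other lists of ER genes (folding, degradation, translocation and transport) were also below 0, from -0.37 to -0.26. The list of other ER folding genes (chaperones, isomerases, oxidases and prolyl isomerases) had 49 genes, of which 35 were measured on all arrays. Its median was -0.33 at H4, where 4 of the 35 genes fell and 1 rose at least 2 fold (3.18% and 3.3% of all genes did), and 0.24 at H5, where 1 rose and none fell (2.29% and 1.77% of all genes did). *creld2*, an ER stress-induced isomerase-like protein, differed from the control by -1.48 at H4, -2.57 at D and -1.5 at X. *dnajb9b*, one of the J-domain partners of BiP, fell at H4 (-1.36) and D (-1.56) and rose at H1 (1.49), and its paralogue *dnajb9a* fell at H1 (-1.25), D (-2.18) and X (-1.02). *ero1a*, the oxidase that renews the disulfide of the isomerases, fell at D (-1.43). At D 7 of the 35 genes fell at least 2 fold and none rose, where 9.74% of all genes fell and 6.63% rose that much, with a list median of -0.02. *hyou1* (the ER chaperone Grp170), *manf* (a secreted ER stress protein) and *dnajb11* (a J-domain partner of BiP) were singled out after their values were seen. At H4 *hyou1* and *manf* differed by -1.25 and -1.21, and *dnajb11* rose at H5 (1.12) and fell at D (-1.10).

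The ER-associated degradation list mostly covers the removal of misfolded proteins to the proteasome. It also holds the transcription factor genes *creb3l3a* and *creb3l3l* and the translocation gene *tram1*, which enter its counts and medians. Of the 37 genes of the list, 28 were measured. None fell at least 2 fold at any of the 7 sites, where from 1.54% (H2) to 9.74% (D) of all genes did. The median was -0.26 at H4 and between -0.01 and 0.20 at the other sites. At least 2 fold higher were 2 genes at H1, 3 at D, 1 at H4 and 1 at X. Of all genes 4.88%, 6.63%, 3.3% and 3.06% rose that much at these sites. *syvn1*, the ubiquitin ligase Hrd1, rose at D (1.13), *ube2j2*, a ubiquitin-conjugating enzyme, rose at H1, H4 and X (1.13, 1.19 and 1.11), *vcp*, the ATPase that draws proteins out of the membrane, rose at H1 (1.06), and *ngly1*, which removes their sugars, rose at D (1.04). Of 10 listed genes for sensors and their proteases, only *atf6b*, *mbtps1*, *mbtps2* and *creb3l2* were measured on all arrays, and none passed 2 fold. *atf6b*, the paralogue of *atf6*, differed by -0.81 at H3, -0.82 at H4 and 0.92 at D, while *atf6* differed by 0.32 at H3. *mbtps1*, the first of the proteases that cut Atf6, differed by -0.02 at H4 and 0.97 at D.

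Genes of the arm of Perk and Atf4 had another order over the sites. The list had 14 of 20 genes measured, with medians of 1.01 at H1, 0.75 at H3, 0.40 at X, 0.18 at H2, 0.18 at H5, -0.02 at H4 and -0.32 at D. At H1 7 of 14 rose at least 2 fold, where 4.88% of all genes did, and at H3 6 of 14, where 6.17% did. *atf3*, a stress-induced transcription factor, rose by 4.99 at H1 and 5.30 at H3 on the log2 scale, and *ppp1r15a*, which directs the removal of the phosphate from eIF2alpha, by 1.53 and 2.58. *atf4b* rose at H1 (1.2) and H3 (1.66), *sesn2*, a stress-induced regulator of growth signalling, at H1 (2.18), and *trib3* and *cebpb*, named after their values were seen, rose at both sites by 1.29 to 1.59. At H1 the chaperone and isomerase members were thus below the control. The members *sdf2l1* and *xbp1* and 12 of the 14 genes of this list were above it, as were 56.3% of all genes. With the median of the 7 other arrays in place of the control, the median over the members at H1 was -0.07 and *hspa5* was at 0.21. At H4 0 of the 14 genes rose and 1 fell at least 2 fold, where 3.3% and 3.18% of all genes did. At H5 1 rose and 0 fell, where 2.29% and 1.77% of all genes did. At D 0 rose and 3 fell, where 6.63% and 9.74% of all genes did.

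*atf3* and *ppp1r15a* are known to be induced by other stresses too. The cytosolic chaperone list had 28 of 39 genes measured, with medians from -0.11 at H4 to 0.30 at D and of 0.06 at H1 and 0.15 at H3. At H1 7 of the 28 genes rose and 3 fell at least 2 fold, where 4.88% and 6.11% of all genes did, and at H3 5 rose and 2 fell, where 6.17% and 6.92% did. These counts include genes that are not cytosolic chaperones. *hspd1* and *hspe1*, which encode mitochondrial chaperonins, rose at H1 (1.59 and 1.16), and *hsf2*, which encodes a transcription factor, fell at H3 (-1.29). The heat-inducible Hsp70 genes *hsp70l* and *hsp70.3* differed from the control by 4.66 and 3.52 at H1 and by 3.94 and 3.46 at H3. *dnajb1b*, a J-domain partner of Hsp70, rose at H1 (1.69) and H3 (3.19), and *bag3*, a co-chaperone of Hsp70, rose at H3 (4.61) and differed by -0.02 at H1. The Hsp70 genes have near-identical copies, so their probes may take up RNA of one another.

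Among the genes for translocation into the ER and glycosylation (46 of 56 measured) and for transport between ER and Golgi (44 of 56 measured), the H4 medians were also the lowest of the 7 sites, at -0.29 and -0.37. In the transport list 43 of the 44 genes were below the control at H4, where 53.1% of all genes were. Of these 1 passed 2 fold, where 3.18% of all genes fell that much, namely *mcfd2* (-1.25), a cargo receptor subunit. *arf4b*, a small GTPase of the secretory pathway with 1 probe, was below the control at all 7 sites, as were 5.47% of all genes. All 7 differences use the same control array. They ran from -0.92 at H4 to -4.24 at D, where its log2 level was 6.41. Its paralogue *arf4a*, also with 1 probe, fell at D (-1.70). *kdelr3*, which returns escaped chaperones from the Golgi to the ER, fell at H1 (-1.12) and X (-1.36). In the other list, *uap1*, which makes the sugar donor UDP-GlcNAc, fell at H1 (-2.06), H3 (-1.68), D (-2.54) and X (-2.60), its relative *uap1l1* at H1 (-1.52), H3 (-2.23) and X (-1.08), and *dpm2*, a subunit of dolichol phosphate mannose synthase, at D (-1.56), while the mannosyltransferase gene *alg2* rose at H2 (1.12) and H3 (1.81).

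**Figure D3:**
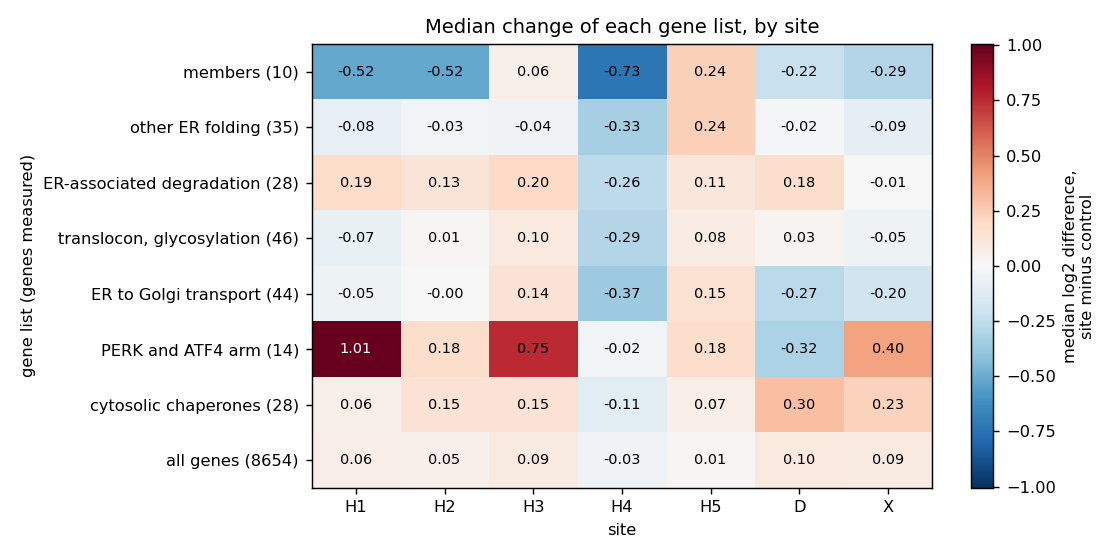
Median log2 difference, site minus control (colour and printed value), of the members, of 6 other lists and of all genes (rows, with the number of genes measured) at the 7 sites (columns). The H4 column is lowest for the members (-0.73), and the row of the Perk and Atf4 arm is highest at H1 (1.01) and H3 (0.75).

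The tissue label was checked against marker genes. All 23 hepatocyte markers with a probe were well above background on all 8 arrays, and their summed signal at the sites was between 0.974 and 1.07 of the control's. Quantile normalization gives every array the same set of values, which limits how far a sum of very bright genes can move. The share of hepatocytes was therefore not measured by this sum. Of the brightest, *serpina1l* differed from the control by -0.29 to 0.20 over the 7 sites, *serpina1* by -0.02 to 0.21, and *rbp4* by -0.08 to 0.23. The hepatocyte markers with the largest difference at any site were *ahsg2* (-0.69 at H5), *apobb.1* (-0.65 at D), *fga* (0.58 at D) and *tat* (-0.58 at H4), none past 2 fold.

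Markers of exocrine pancreas, a secretory tissue rich in ER that in zebrafish lies scattered along the intestine near the liver, were well above background for 26 or 27 of 27 genes on every array. Their summed signal was lower at the sites than in the control, by 4.74-fold at H1, 1.98-fold at H2, 9.45-fold at H3, 1.18-fold at H4, 1.55-fold at H5, 3.00-fold at D and 4.59-fold at X. The trypsinogen gene *prss1* differed from the control by -0.24 at H4 to -2.88 at H3, *prss59.1* by -0.27 at H4 to -3.64 at H3, and the amylase gene *amy2a* by -0.18 at H4 to -2.29 at H3. The chymotrypsinogen gene *ctrb.2* had the largest difference of the list, -6.29 at H3. The member medians beside these sums were -0.52 at H1, -0.52 at H2, 0.06 at H3, -0.73 at H4, 0.24 at H5, -0.22 at D and -0.29 at X. The part of pancreatic RNA in the members' values was not tested.

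Other marker lists also moved with the sites. Intestine markers (18 genes with a probe) summed to 3.18-fold, 4.54-fold, 9.0-fold and 7.25-fold less at H1, H3, D and X than in the control, and to 0.976 of it at H4 and 0.946 at H5. Islet markers (11 genes) summed to 2.78-fold, 3.64-fold, 9.12-fold and 12-fold less at the same sites H1, H3, D and X. Testis markers (15 genes) summed to 17.5-fold more at H4 and 5.31-fold and 5.24-fold more at H3 and H5. Of the 6 measured on all arrays, 4 rose at least 2 fold at H4, where 3.3% of all genes did. The largest rises were those of *cimap1b* (4.64) and *sycp1* (4.24). Muscle markers (28 genes) summed to 4.98-fold more at H5. Of the 14 measured on all arrays, 6 were below the control at H5 and the median was 0.06. The 4 that rose at least 2 fold there (2.29% of all genes did) were *cmlc1* (7.26), *tnnc1a* (4.40), *acta1b* (3.66) and *actc1a* (3.65). Leukocyte markers (16 genes) lay between 0.470 of the control at H3 and 1.31 at H4, and markers of biliary, stellate and endothelial cells (20 genes) between 0.765 at H5 and 1.3 at D. Red cell markers (8 genes) lay between 0.582 at H3 and 1.43 at D, and of 4 markers of B and plasma cells 1 to 4 were above background on an array. The markers *isl1a*, *rag1*, *mylpfb*, *cdh5* and *stab2* did not reach a signal well above background on any of the 8 arrays. The part of these cells in the members' values at H4 and H5 was not tested.

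**Figure D4:**
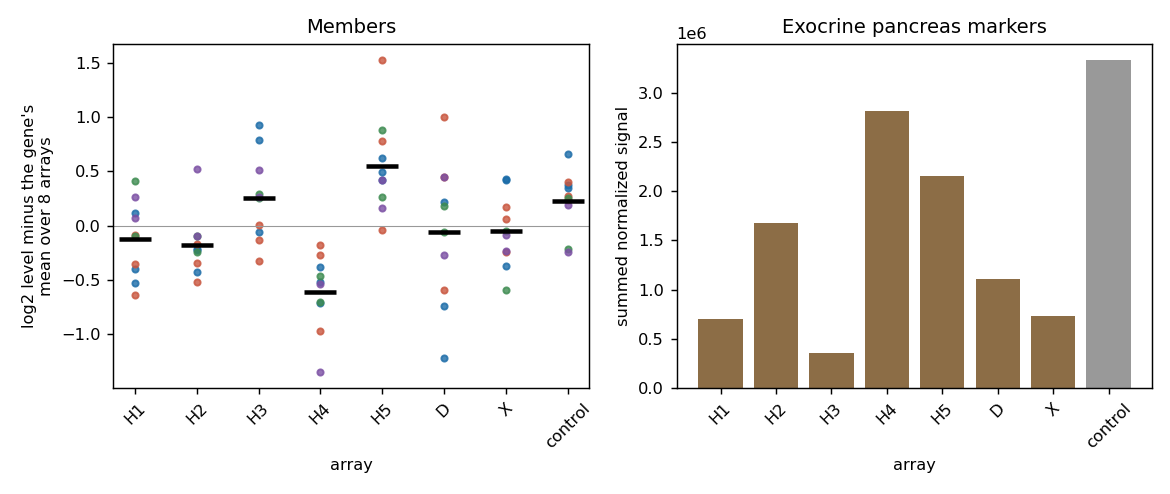
Left, log2 level of each member minus its mean over the 8 arrays (points, coloured by role as in the other plots, with black bars for the mean over the members). Right, summed normalized signal of the exocrine pancreas markers on each array. The member mean is lowest at H4 (-0.61) and highest at H5 (0.55), and the pancreas sum is lowest at H3 and highest in the control.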

How the data were processed

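The authors deposited Agilent scanner files with, for each spot, the background-subtracted intensity (the processed signal), median spot and local background intensities, and quality marks, per the file headers from Feature Extraction 11.5.1.1 (the submitters' notes name version 10.7). Log2 values of each array were deposited too; they follow the log2 processed signal less an offset close to that array's 75th percentile, while the methods name quantile normalization (GeneSpring 13.0). The scale of each column was settled by this comparison (r at least 0.999995, column medians from -2.47 to -2.15), and the table served as an alternative. A second set of arrays named in the methods was not analysed here. No authors' column of fold changes was used.

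Control spots were left out, spots of a probe were averaged, log2 processed signals were quantile normalized over the 8 arrays, and a gene's value is the mean of its probes that were well above background on all 8 arrays and not marked as non-uniform or outliers. Symbols came from probe accessions through a RefSeq table (names only; Ensembl transcript probes were not matched). Between 56.5% and 70.8% of 43803 spots were well above background. The number of arrays limits the precision, and repeated spots of a probe had an SD of 0.12 (D) to 0.28 (control) on the log2 scale. The control array, with the highest SD, enters every difference of a site minus the control. No test was possible with 1 array per group; genes past 2 fold were counted beside the share of all genes past it.

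The members and the gene lists were chosen with earlier results of these data known. Named genes are the members and up to 4 genes per list with the largest difference at any site. Several of these, such as *atf3*, *sesn2* and *bag3*, had 1 probe, so no spread can be given for them. The 3 brightest markers of a described cell type and the 5 most and 3 least similar genes are also named. Other lists of markers are given as sums, with counts for testis at H4 and muscle at H5. Alternatives were 75th percentile normalization, the deposited log2 values, normexp background correction (limma 3.58.1 in R 4.3.3, offset 50, on median signals), other filters on dim or marked probes, other thresholds, slide centring and another reference. Promoter and protein sequences were planned and not used here. Python 3.11.15, numpy 2.4.6 and pandas 2.3.3 were used.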

Additional observations from a re-analysis of the deposited data

Results flagged for a closer look

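*pdia4* moved in opposite directions at 2 sites, with all 3 probes past 2 fold in each case: it was above the control at H5 (log2 difference 1.12) and below it at H4 (-1.38). Both arrays lay on the same slide and are compared with the same control array. The difference between the sites was not tested, since each has 1 array. Of the 8654 genes measured, 183 (2.11%) passed 2 fold in both directions between some pair of sites.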

How the results depend on the processing

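No paired analysis was possible because every group has 1 array, and no array could be left out for the same reason. The sign of the median over the members did not change at H1, H2, H4 or X under any of the 10 alternatives, and changed under 3 at H3, 1 at H5 and 3 at D. Only 2 medians moved by more than the spread, here the root mean square SD between probes of a gene at that site. This SD was taken over 4222 genes with 2 or more probes and ran from 0.25 (H2) to 0.49 (D). It describes single genes and not a median over 10. Both medians moved when the median of the 7 remaining arrays replaced the control, which gave -0.068 at H1 and 0.55 at H5.

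The count of members past 2 fold depended on the setting. It was 5 at H4 and 1 at H5 with 75th percentile normalization, with the deposited log2 values and with slide centring, against 3 and 2 as reported. With normexp it was 1 at H5 and 0 at X. With the median of the remaining arrays in place of the control it was 1 at H3, 1 at H4, 3 at H5 and 0 at X. At 3 fold it was 0 at H4, 0 at H5, 1 at D (also with 3 fold at D only) and 0 at X, where 1.85%, 0.901%, 4.93% and 3.25% of all genes changed that much. At 1.5 fold it was 5 at H1, 5 at H2, 6 at H4 and 5 at D, where 26%, 11.8%, 21% and 40% of all genes changed that much. The brightest probe of each member, an alternative added after the data were seen, gave 1 at H5, 1 at D and 0 at X. The cause was not tested. Stricter and looser thresholds lower and raise a count by construction. Except for the 3 fold and 1.5 fold counts, the share of all genes under the same setting is not given here.

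Among single members, *hspa5* stayed below the control at H4, D and X under all 10 alternatives but missed 2 fold under 1, 2 and 3 of them, and *calr* at D and *atf6* at H4 passed 2 fold under all 10. *pdia4* missed 2 fold at H4 under 1 and at H5 under 3, and *sdf2l1* at H5 under 2. Of 700 values of single members under the alternatives, 53 moved by more than the same root mean square SD of the site. It was also used for the members with 1 probe. A change of sign, of whatever size, occurred in 35 of the 700 values, at 21 of the 70 pairs of gene and site. It occurred in 0 for the 8 pairs past 2 fold. Those at *calr* (-0.28 at H3, -0.58 at H5, slide centring) and *hspa5* (0.21 at H1, median of the remaining arrays) are examples. Of 3339 values of other named genes, 307 moved and 6 changed sign where the gene had passed 2 fold. The same median reference turned *arf4b* (0.088 at H2, 0.039 at H5), *hsp70l* (-0.18 at H2, -0.20 at H5) and *ctrb.2* (0.77 at H2, 1.71 at H5). One array per group, 1 slide for the control and spreads that cover probes only limit all values.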
